A study of Mus musculus with 12 samples.

Results

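The gene set described here is the interleukin 6 (IL-6) family and its signalling through STAT3. It held 10 genes of the 54532 in the deposited table, chosen by symbol. They were the ligands Il6 and Il11, the receptor chains Il6st, Il6ra, Osmr and Il4ra, the transcription factor Stat3, and the feedback and target genes Socs3, Sbno2 and Bcl3. The set was proposed with the DSS results of these same libraries in view, so its values between DSS and no DSS are a description and carry no test. The comparisons between diets were tested.

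The libraries were made from mRNA of the colon of wild-type (WT) C57BL/6J mice, in 4 groups of 3. The groups were HFD with 2% DSS (HFD+DSS), CD with 2% DSS (CD+DSS), HFD alone and CD alone. HFD and CD are diet labels that the records do not spell out, and no source used here gives the length of feeding or of DSS exposure, the sex or the age. DSS, dextran sulphate sodium, is an agent widely used in mice to injure the colonic epithelium and set off colitis.

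Ligands of the IL-6 family bind a receptor chain of their own and share the signalling chain gp130, the product of Il6st. Janus kinases on the receptor then phosphorylate STAT3, which enters the nucleus and switches on genes that include Socs3, whose product blocks the same receptors. In the colon the pathway is known for its part in epithelial repair and in the acute-phase response to injury. Il4ra belongs to a neighbouring branch, since its product binds IL-4 and IL-13 and signals mainly through STAT6.

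All 8 colonic epithelial markers examined (Car1, Slc26a3, Aqp8, Krt20, Cdx2, Cdx1, Epcam and Vil1) reached FPKM 1 or more in at least 3 libraries. About 14700000 to 17900000 fragments were assigned to genes per library. FPKM, fragments scaled to gene length and library size, is a level per length, so levels of different genes may be set side by side with 1 limit. The length that gave whole fragments was that of all annotated exons, 9527 bases for Stat3 and 2891 for Socs3. A gene whose transcripts use only some of its exons is understated, so ranks between genes depend on these lengths. Mean FPKM over all 12 libraries was 22.3 for Bcl3, 19.6 for Stat3, 19.0 for Socs3, 15.9 for Il6st, 15.7 for Il4ra and 11.1 for Sbno2. It was 2.39 for Il11, 2.33 for Osmr, 1.52 for Il6ra and 0.248 for Il6. Nothing in the labels says that the 3 libraries of a group came from separate animals, so p-values measure only the spread between these libraries, which may be technical.

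The sequences just upstream of annotated starts of Socs3 and Sbno2 are shown, and they lie inside the gene spans given below. They were chosen because these genes had the most similar profiles across libraries. Both were picked with their DSS difference known, so this likeness is a description. Both genes also held a STAT-type motif, TTCNNNGAA, in the promoter windows searched, and only stretches with a match are shown. The remaining Sbno2 window held no match, and neither did those of Bcl3 and Stat3. The stretches shown are RefSeq sequences on GRCm38.p6, read 5′ to 3′ on the minus strand, where both genes lie, and the capitals mark the motif. The Socs3 stretch is chr11:117969452-117969616, and the Sbno2 stretches, upstream of 2 of its 3 annotated starts, are chr10:80102720-80102892 and chr10:80101203-80101377.
Socs3: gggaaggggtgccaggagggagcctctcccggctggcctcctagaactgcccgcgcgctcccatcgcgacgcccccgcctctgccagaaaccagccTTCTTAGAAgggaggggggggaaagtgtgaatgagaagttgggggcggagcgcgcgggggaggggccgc
Sbno2, first start: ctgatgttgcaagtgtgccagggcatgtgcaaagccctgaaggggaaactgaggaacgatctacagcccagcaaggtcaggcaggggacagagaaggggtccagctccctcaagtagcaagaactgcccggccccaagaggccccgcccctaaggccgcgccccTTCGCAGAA
Sbno2, second start: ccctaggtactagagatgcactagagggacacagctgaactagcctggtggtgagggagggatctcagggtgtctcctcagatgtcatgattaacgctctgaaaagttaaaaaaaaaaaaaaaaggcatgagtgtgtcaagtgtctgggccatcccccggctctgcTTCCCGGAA
Counted from its first base, the motif lay 26 and 24 bases before these Sbno2 starts and 154 bases before the Socs3 start. The Socs3 stretch held 0 bases of an annotated exon, and 2 bases of the first Sbno2 stretch fell in one. Windows reached from 250 bases before to 50 after each annotated start. The 10 genes had 13 windows. TTCNNNGAA, which reads the same on both strands, was found for Socs3 and Sbno2 and in 8.30% of all 32851 windows. TTC and GAA with 4 bases of any kind between them, a spacing that STAT6 is known to bind, was found for Il11 and in 6.95% of all windows. TGANTCA, the AP-1 motif, also a palindrome, was found for Il6, Il11 and Osmr and in 7.81% of all windows. A motif match is a description of letters and not a binding site.

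The 2 ligands were close to 0 without DSS and higher in every DSS library. Il6 (ENSMUSG00000025746, chromosome 5, 30013114 to 30019981, plus strand), which encodes the cytokine that gives the family its name, had FPKM 0.162, 0.510 and 0.345 in HFD+DSS. In CD+DSS it had 0.169, 0.122 and 1.52. In HFD it had 0.0259, 0.0700 and 0, and in CD 0, 0 and 0.0494. These levels rest on few fragments, which were 6, 22 and 16 in HFD+DSS, 7, 4 and 55 in CD+DSS, 1, 3 and 0 in HFD and 0, 0 and 2 in CD. A library with 0 fragments allows up to 3. No DSS library overlapped a library without DSS, and CD+DSS replicate 3 held more fragments than the HFD+DSS group together.

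Summed over a group and scaled for library size, the Il6 ratio was 10.3 for HFD+DSS over HFD, with an exact 95% interval of 3.76 to 39.6. It was 35.6 for CD+DSS over CD, with an interval of 9.48 to 300.4, and 8.84 (1.93 to 82.1) without CD+DSS replicate 3. Intervals on fragments cover counting error only. Il6 did not reach the level needed for the fit across genes and has no fold change from it.

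Il11 (ENSMUSG00000004371, chromosome 7, 4772373 to 4782859, minus strand), a gp130 cytokine made mainly by stromal cells, had FPKM 0.717, 3.67 and 1.22 in HFD+DSS and 2.57, 2.72 and 16.9 in CD+DSS. It had 0.218, 0.0563 and 0.389 in HFD and 0.0298, 0.0316 and 0.179 in CD. All 6 DSS libraries lay above all 6 others, and CD+DSS replicate 3 was again the highest. The ratio of summed fragments was 8.94 (5.69 to 14.8) for HFD+DSS over HFD, from 200 and 21 fragments. It was 90.3 (45.6 to 210.03) for CD+DSS over CD, from 669 and 8 fragments, and 32.6 (16.1 to 76.7) without CD+DSS replicate 3. Il11 entered the fit only through its DSS libraries, and its log2 difference, DSS minus no DSS on the log2(FPKM + 1) scale, was 1.11 ± 0.54 (SE) under HFD and 2.52 ± 0.54 under CD. That scale understates the change of genes with low levels.

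Other ligands of the family were read from a list of 9, of which 3 passed the filter on low values. Lif, leukaemia inhibitory factor, had FPKM 2.16, 1.33 and 1.52 in HFD+DSS and 1.88, 1.19 and 2.45 in CD+DSS. It had 0.606, 0.808 and 0.705 in HFD and 0.813, 0.527 and 0.648 in CD, so that no DSS library overlapped the others. Lif passed the filter only through its DSS libraries, so its log2 difference, 0.69 ± 0.13 with both diets averaged, is given with no test. Ctf1, cardiotrophin 1, had a log2 difference of -0.50 ± 0.15 (limma adjusted p = 0.0908) and Ebi3, a subunit of IL-27 and IL-35, one of 0.13 ± 0.17 (0.671).

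Low ligands that signal through STAT3 were counted in fragments. Osm, oncostatin M, which acts through Osmr, had 35 fragments in HFD+DSS against 12 in HFD, and 71 in CD+DSS against 10 in CD. The Osm ratio, scaled for library size, was 2.74 (1.39 to 5.79) for HFD+DSS over HFD. It was 7.67 (3.93 to 16.7) for CD+DSS over CD, and 3.86 (1.78 to 9.04) without CD+DSS replicate 3. Osm overlapped between libraries with and without DSS, with 4 fragments in HFD+DSS replicate 3 and 7 in HFD replicate 3. Il22, a lymphocyte cytokine that acts on epithelium through STAT3, had 71 in HFD+DSS against 1 in HFD. It had 41 in CD+DSS, or 14 without CD+DSS replicate 3, against 2 in CD, and 0 in CD+DSS replicate 2. Csf3, the neutrophil growth factor G-CSF, had 31 in HFD+DSS and 50 in CD+DSS, and 0 in every library without DSS. HFD+DSS replicate 1 also held 0, so it did not differ from these, and the other HFD+DSS libraries held 20 and 11. Against a floor of 3 fragments over the group, summed Csf3 was at least 9.70-fold higher in HFD+DSS than in HFD. It was at least 18.0-fold higher in CD+DSS than in CD (at least 6.43-fold without CD+DSS replicate 3). These bounds leave out the counting error of the DSS side. One library carried most of these counts in places: Il22 reached FPKM 3.90 in HFD+DSS replicate 1, against 0.152 and 0.0944 in the other HFD+DSS libraries.

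Of the receptor chains, Il4ra was higher in every DSS library and Osmr in all but 1 of them, while the levels of Il6st and Il6ra overlapped between libraries with and without DSS. Il6st (ENSMUSG00000021756, chromosome 13, 112464070 to 112510086, plus strand) had FPKM 20.4, 16.9 and 15.5 in HFD+DSS, 19.0, 8.99 and 19.4 in CD+DSS, 15.9, 18.2 and 13.0 in HFD and 14.0, 14.9 and 14.5 in CD. CD+DSS replicate 2 was the lowest of all 12 and the groups overlapped. The log2 difference was 0.16 ± 0.25 under HFD (95% interval -0.39 to 0.71) and 0.05 ± 0.25 under CD (-0.50 to 0.59), the sign of which turned to -0.01 when libraries were scaled to equal summed FPKM. Il6ra (ENSMUSG00000027947, chromosome 3, 89864059 to 89913196, minus strand), the IL-6 binding chain, ranged from FPKM 1.07 to 1.61 in HFD+DSS, 0.926 to 2.08 in CD+DSS, 1.44 to 2.13 in HFD and 1.12 to 2.23 in CD. Its log2 difference was -0.24 ± 0.21 under HFD and -0.05 ± 0.21 under CD.

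Osmr (ENSMUSG00000022146, chromosome 15, 6813577 to 6874969, minus strand), which pairs with gp130 to bind oncostatin M, had FPKM 4.93, 2.91 and 2.21 in HFD+DSS and 3.36, 1.82 and 4.16 in CD+DSS. It had 1.57, 1.87 and 1.39 in HFD and 1.09, 1.49 and 1.09 in CD. CD+DSS replicate 2 lay just below HFD replicate 2, the only overlap between libraries with and without DSS. The log2 difference was 0.69 ± 0.25 under HFD and 0.85 ± 0.25 under CD. The level of Il6st was 4.14 to 7.00 times that of Osmr with DSS and 9.33 to 13.3 times without it, and these ranges did not overlap.

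Il4ra (ENSMUSG00000030748, chromosome 7, 125552120 to 125579474, plus strand) had FPKM 20.05, 17.6 and 14.5 in HFD+DSS, 25.9, 24.5 and 23.7 in CD+DSS, 12.9, 10.5 and 8.99 in HFD and 8.95, 8.10 and 12.7 in CD. Every DSS library was above every other, and the 3 CD+DSS libraries were the highest. The log2 difference was 0.64 ± 0.19 under HFD and 1.26 ± 0.19 under CD.

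**Figure D1:**
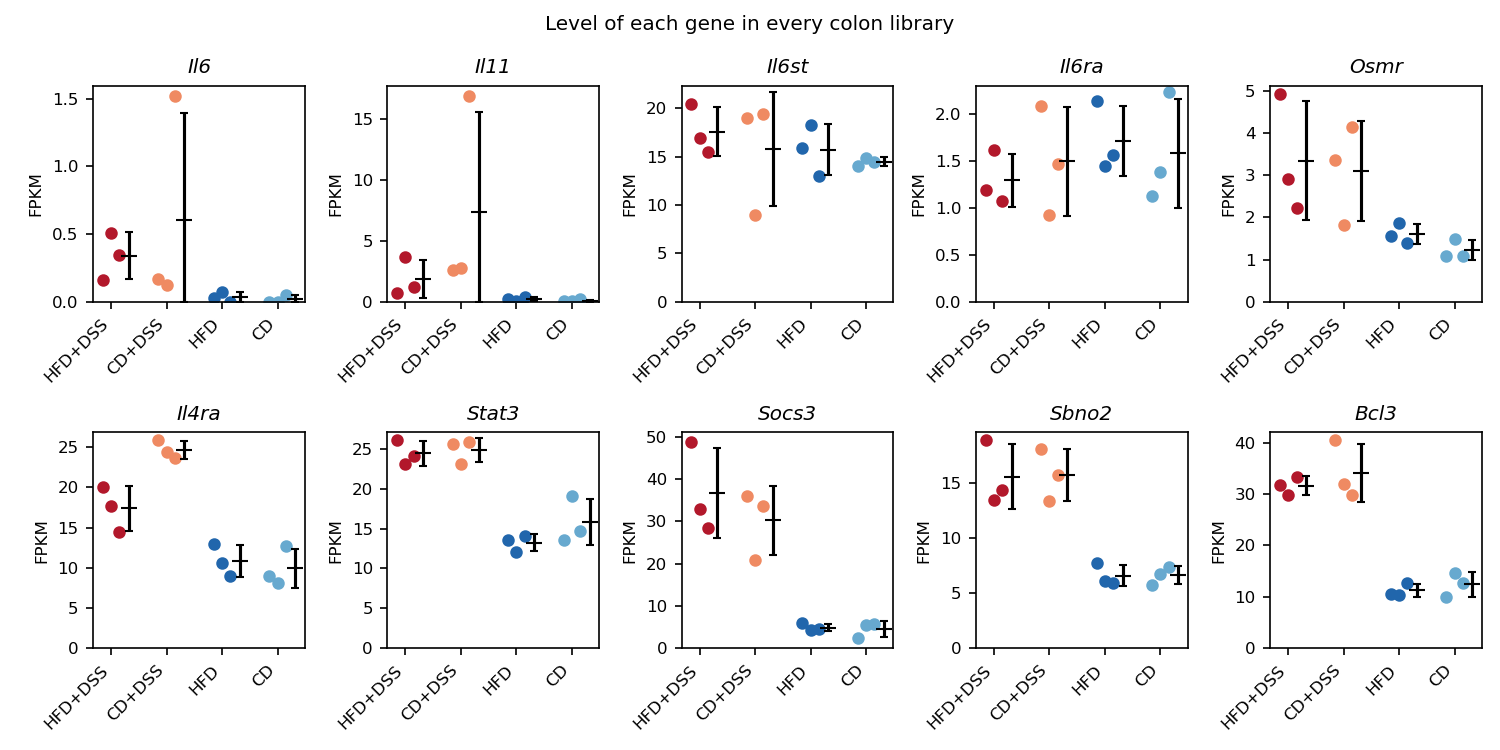
FPKM of the 10 genes in each of the 12 colon libraries, with 1 point per library, 1 panel per gene, an axis from 0, and the mean with SD to the right of each group of 3 (lower bars end at 0). Il6, Il11, Il4ra, Stat3, Socs3, Sbno2 and Bcl3 show all 6 DSS points above all 6 others, whereas Il6st and Il6ra overlap widely.

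Stat3, Socs3, Sbno2 and Bcl3 were each higher in all 6 DSS libraries than in the 6 without DSS. Stat3 (ENSMUSG00000004040, chromosome 11, 100885098 to 100939540, minus strand) had FPKM 26.2, 23.1 and 24.1 in HFD+DSS and 25.6, 23.1 and 25.8 in CD+DSS. It had 13.6, 12.1 and 14.0 in HFD and 13.6, 19.1 and 14.7 in CD. The 6 DSS values spanned only 1.13-fold. The log2 difference was 0.84 ± 0.14 under HFD and 0.64 ± 0.14 under CD. Stat3 is itself a known STAT3 target.

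Socs3 (ENSMUSG00000053113, chromosome 11, 117966079 to 117970047, minus strand), the feedback inhibitor that binds gp130, had FPKM 48.7, 32.9 and 28.3 in HFD+DSS and 36.0, 20.9 and 33.7 in CD+DSS. It had 5.82, 4.22 and 4.49 in HFD and 2.45, 5.46 and 5.66 in CD. The lowest DSS library, CD+DSS replicate 2, was still well above the highest library without DSS, HFD replicate 1. Means were 36.6 ± 10.7 in HFD+DSS against 4.84 ± 0.86 in HFD, and 30.2 ± 8.1 in CD+DSS against 4.52 ± 1.80 in CD (SD, n = 3 each), which are ratios of 7.57 and 6.67. The log2 difference averaged over both diets was 2.59 ± 0.21.

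Socs3 lay above Stat3 in 5 of the 6 DSS libraries, all but CD+DSS replicate 2, and below it in all 6 others. Per library, Socs3 over Stat3 was 1.18 to 1.86 in HFD+DSS and 0.903 to 1.41 in CD+DSS, against 0.320 to 0.428 in HFD and 0.180 to 0.386 in CD. In the means of HFD+DSS, Socs3 was the highest of the 10, followed by Bcl3 at 31.7 and Stat3 at 24.4. In CD, Stat3 at 15.8 and Il6st at 14.5 led, and Socs3 lay below Bcl3 at 12.4, Il4ra at 9.91 and Sbno2 at 6.62.

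**Figure D2:**
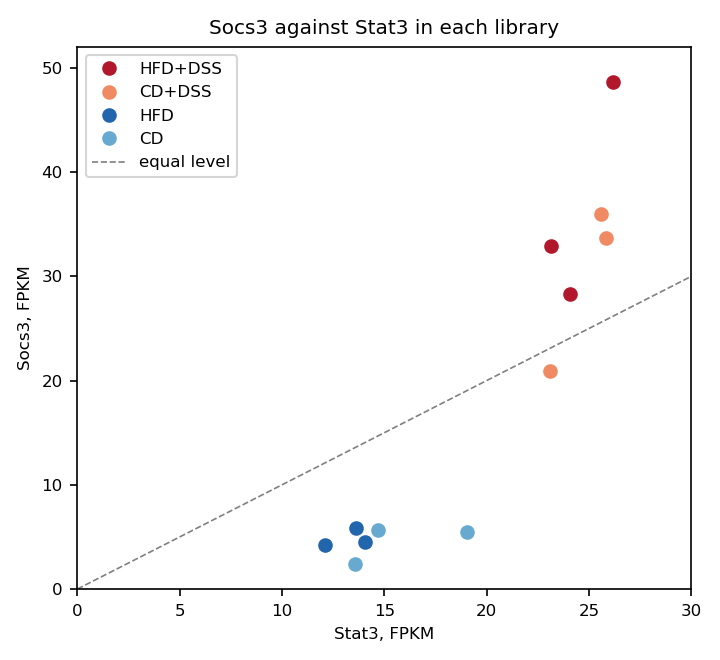
Socs3 FPKM against Stat3 FPKM in each of the 12 libraries, coloured by group, with a dashed line where both levels are equal. The 6 DSS libraries have Stat3 between 23.1 and 26.2 and Socs3 between 20.9 and 48.7, and the 6 others have Socs3 between 2.45 and 5.82, all under the line.

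Sbno2 (ENSMUSG00000035673, chromosome 10, 80056992 to 80105571, minus strand), a helicase-family regulator known to be induced by IL-10 and STAT3 in macrophages, had FPKM 19.0, 13.5 and 14.4 in HFD+DSS and 18.1, 13.4 and 15.7 in CD+DSS. It had 7.71, 6.12 and 5.92 in HFD and 5.74, 6.76 and 7.35 in CD. The groups did not overlap, and the log2 difference was 1.12 ± 0.17 under HFD and 1.13 ± 0.17 under CD. Bcl3 (ENSMUSG00000053175, chromosome 7, 19808462 to 19822770, minus strand), a nuclear IkB protein that partners NF-kappaB p50 and p52, had FPKM 31.8, 29.8 and 33.4 in HFD+DSS and 40.5, 31.9 and 29.8 in CD+DSS. It had 10.6, 10.4 and 12.7 in HFD and 9.88, 14.7 and 12.6 in CD. Its log2 difference was 1.42 ± 0.17 under HFD and 1.39 ± 0.17 under CD, again with no overlap.

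Of the 10 genes, 7 had all 6 DSS libraries above all 6 others, and 6 of these were among the 9 tested, where 2.17% of the 14179 genes tested did so. Past an adjusted p of 0.05 in limma were 4 of the 9 under HFD (Stat3, Socs3, Sbno2 and Bcl3), where 0.339% of all genes passed, and 4 under CD (Il4ra, Socs3, Sbno2 and Bcl3), where 0.0846% passed. With both diets averaged, 7 of 9 passed, all higher with DSS, where 2.74% of all genes passed and 1.87% passed as higher. Il11, which entered the fit only through its DSS libraries, is 1 of these 7 and of the 6 without overlap. With 1 library left out in turn, Il11 lost the averaged call in 7 of 12 runs, Osmr in 10, and Il4ra, Stat3, Socs3, Sbno2 and Bcl3 in 0. Calls under HFD were lost in 11 runs for Stat3, 6 for Sbno2, 2 for Bcl3 and 1 for Socs3. Under CD they were lost in 9 for Sbno2, 8 for Il4ra, 4 for Bcl3 and 3 for Socs3. The median log2 difference of the 9 was 0.84 under HFD and 1.13 under CD, beside medians of 0.01 over all genes in both. Because the DSS results were known when the genes were picked, nothing is read from these counts.

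Some cell markers differed between libraries with and without DSS. Posterior Hox genes, from which tissue position was read, were higher with DSS under HFD and lower with DSS under CD. The neutrophil gene S100a9 had FPKM 2.91 to 16.6 with DSS and 0 to 0.977 without. The 12 neutrophil markers summed to 128.4 to 595 in HFD+DSS, 113 to 240 in CD+DSS, 43.5 to 93.0 in HFD and 133 to 257 in CD. Of those markers, Ngp was at 0 in every library and Cxcr2, Camp, Elane and Mpo stayed under FPKM 1. Most of each neutrophil sum came from Ly6g and Cd177, which both overlapped. Ly6g had 33.8 to 521 with DSS and 0.800 to 165 without, and Cd177 had 29.2 to 132 with DSS and 33.0 to 129 without. S100a8 had 0.427 to 22.3 with DSS and 0 to 0.452 without, and Retnlg 0.125 to 2.60 with DSS and 0 to 0.106 without. Csf3r and Mmp9 also overlapped. The monocyte gene Cd14 had 38.6 to 63.6 with DSS and 21.5 to 43.8 without. Its list did not move as a whole. Of the 12 monocyte and macrophage markers, 6 were higher and 6 lower with DSS, both diets averaged, with a median log2 difference of 0.03. Their sums overlapped, at 232 to 486 in HFD+DSS, 239 to 668 in CD+DSS, 309 to 409 in HFD and 294 to 462 in CD. The 4 enteric glia markers summed to 6.95 to 23.4 in HFD+DSS and 7.85 to 8.52 in CD+DSS, against 5.35 to 6.11 in HFD and 4.82 to 5.41 in CD, with no overlap between libraries with and without DSS. Of these, Gfap had 2.76 to 9.79 with DSS and 0.908 to 1.22 without. The plasma cell gene Jchain ran the other way, at 127 to 514 with DSS and 573 to 1024 without. Of the 8 B and plasma cell markers, 4 were higher and 4 lower with DSS, both diets averaged, with a median log2 difference of -0.08. Hoxa13, Hoxb13 and Hoxd13, which mark the distal gut, summed to 46.6 to 92.8 in HFD+DSS, 1.62 to 40.5 in CD+DSS, 7.04 to 34.7 in HFD and 38.3 to 111 in CD. Their median log2 difference, DSS minus no DSS, was 2.18 under HFD and -2.06 under CD, with all 3 higher under HFD and all 3 lower under CD. With their level as a covariate, 0 of the 9 genes passed under either diet alone and 5 of 9 passed with both diets averaged. Of all 14179 genes tested, 0 passed with this covariate under CD, 1 under HFD and 284 with both diets averaged. In bulk tissue, a change in the share of a cell type and a change in RNA per cell cannot be told apart, and the part of the markers in these results was not tested.

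CD+DSS replicate 2 was the lowest DSS library for Socs3, Sbno2, Stat3, Osmr, Il6st, Il6ra, Il6 and Lif. It also had the lowest summed fibroblast markers of all libraries, at 136, and the lowest posterior Hox sum. HFD+DSS replicate 1 was the highest library for Socs3, Sbno2, Stat3, Osmr and Il6st, and CD+DSS replicate 3 for Il6, Il11, Lif and Osm. For Socs3, CD+DSS replicate 3 was below HFD+DSS replicate 1 and CD+DSS replicate 1. Other targets varied, with Timp1 (19.4) and Cebpb (31.3) highest in CD+DSS replicate 3, and Reg3g (797) and Lrg1 (38.6) in HFD+DSS replicate 1. The ligand Il22 (3.90) was highest in HFD+DSS replicate 1. How ligand levels relate to target levels across libraries was not tested.

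Diet was tested in the libraries without DSS, in those with DSS, and as a difference between the DSS effects. None of the 9 genes passed in limma in any of the 3 comparisons, where 0% of all genes passed in each, although 588, 938 and 769 genes had an unadjusted p under 0.05, and voom also called 0 in each. Without DSS, HFD minus CD was 0.13 ± 0.30 on the log2 scale for Socs3 (95% interval -0.52 to 0.78) and -0.22 ± 0.14 for Stat3 (-0.54 to 0.09). Intervals for Sbno2 and Bcl3 were -0.38 to 0.36 and -0.49 to 0.25. With DSS, HFD minus CD was 0.27 ± 0.30 for Socs3 (-0.38 to 0.92), -0.02 ± 0.14 for Stat3 (-0.34 to 0.30), -0.02 ± 0.17 for Sbno2 (-0.39 to 0.35) and -0.09 ± 0.17 for Bcl3 (-0.46 to 0.28). For these 4 the point estimates were small, and the intervals leave room for differences of the sizes given. The posterior Hox sum also separated the diets. It was lower in HFD (7.04 to 34.7) than in CD (38.3 to 111), and higher in HFD+DSS (46.6 to 92.8) than in CD+DSS (1.62 to 40.5). Beyond the fit with the Hox covariate, the part of tissue position in any diet difference was not tested.

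Il4ra was the one gene whose HFD+DSS and CD+DSS libraries did not overlap, with means of 17.4 ± 2.8 in HFD+DSS and 24.7 ± 1.1 in CD+DSS. Such separation, in either direction, was seen in 9.46% of all genes tested. The log2 difference was -0.49 ± 0.19 (95% interval -0.90 to -0.08; limma adjusted p = 0.736), and the two-sided exact permutation test on the 3 and 3 libraries gave p = 0.1, the smallest it can give. The 11 T and NK cell markers also summed lower in HFD+DSS, at 36.0 to 66.1, than in CD+DSS, at 81.4 to 178, and their part was not tested. Without DSS, 0 of the 10 genes separated HFD from CD, where 9.63% of all genes did. The DSS effect on Il4ra under HFD minus that under CD was -0.62 ± 0.26 (95% interval -1.20 to -0.04; limma adjusted p = 0.885).

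Il11 had the widest diet estimate with DSS, at -1.25 ± 0.54 (95% interval -2.44 to -0.06; limma adjusted p = 0.749), with means of 1.87 ± 1.58 in HFD+DSS and 7.40 ± 8.23 in CD+DSS. Without CD+DSS replicate 3 the estimate was -0.48. The difference of its DSS effects was -1.42 ± 0.77 (limma adjusted p = 1.000). For Socs3, Stat3, Sbno2 and Bcl3 that difference was 0.14 ± 0.42, 0.20 ± 0.20, -0.01 ± 0.24 and 0.03 ± 0.24.

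**Figure D3:**
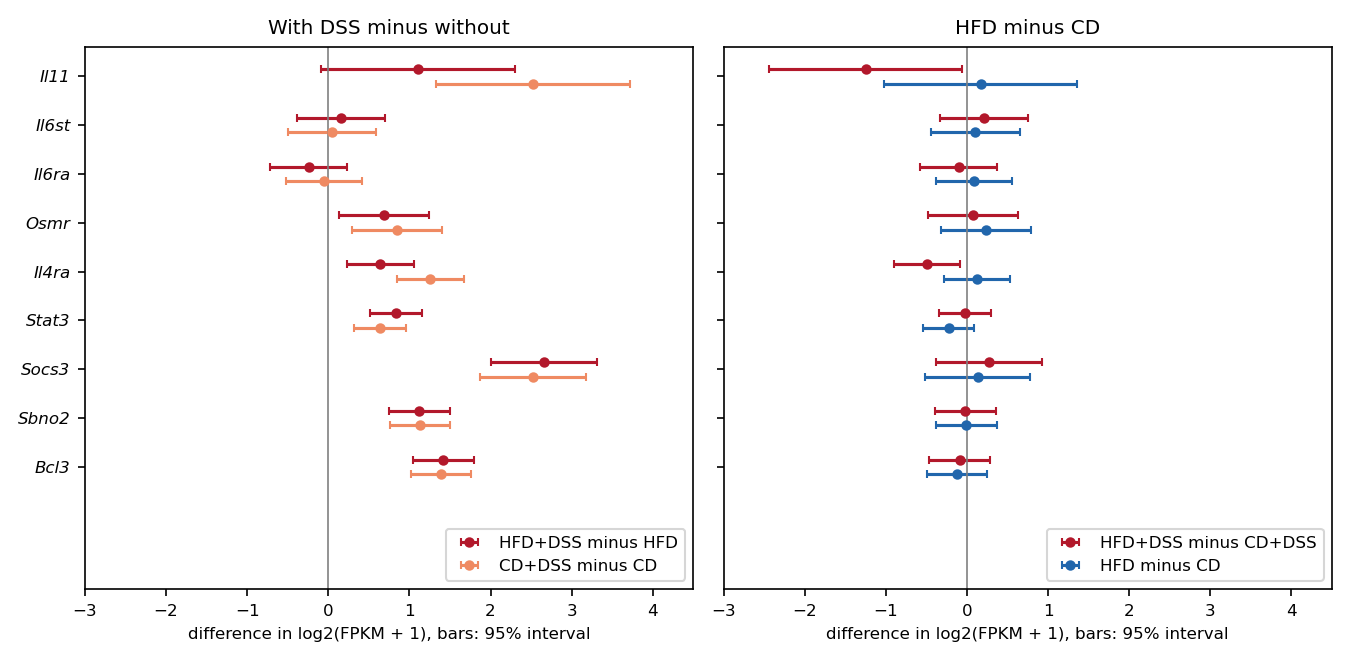
Differences in log2(FPKM + 1) for the 9 genes in the fit, with 95% intervals from limma, for DSS minus no DSS under each diet (left) and HFD minus CD with and without DSS (right). Socs3 lies at 2.66 under HFD and 2.52 under CD, while the diet intervals of all but Il11 and Il4ra with DSS span 0.

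The other genes of the pathway were read from 8 lists of 93 genes, of which 75 entered the fit, for the DSS effect averaged over both diets. The lists, like the 10 genes, were drawn up with earlier DSS results of these libraries known. Their counts and DSS p-values are therefore a description and not independent evidence of a direction. Of these 75, 12 passed, 11 higher and 1 lower with DSS, where 2.74% of all genes passed. Lif and Lcn2 are among the 11 and entered the fit only through their DSS libraries, so their calls are not counted as results. Under HFD alone 3 passed (Reg3g, Lrg1 and Nfkbiz) and under CD alone 2 (Reg3g and Saa3). With 1 library left out in turn, Reg3g lost its call in 9 of 12 runs under HFD and 8 under CD, Saa3 in 8 under CD, and Lrg1 in 1 under HFD, without HFD replicate 2 (adjusted p = 0.0596). Of 7 other settings, 4 ended the Reg3g call under HFD (up to 0.114) and 4 under CD (up to 0.644), 4 that of Saa3 (up to 0.644) and 2 that of Lrg1 (up to 0.1002). With both diets averaged, the median log2 difference of the 75 was 0.20, beside 0.01 over all genes.

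Of 21 STAT3 target genes tested, 9 passed as higher with DSS, Lcn2 included, and 19 had a positive difference, with a median of 0.67. This list holds Reg3g and Saa3, whose rise was known when it was drawn up, so their p-values below carry no test. Reg3g, an antibacterial lectin of the epithelium, had FPKM 797, 559 and 294 in HFD+DSS and 68.7, 589 and 519.8 in CD+DSS. It had 16.5, 7.86 and 19.3 in HFD and 0.794, 2.32 and 12.6 in CD, a log2 difference of 5.56 ± 0.61 (limma adjusted p = 0.00256). Its close paralogue Reg3b, which may share reads with it, rose by 6.30 ± 0.87 (limma adjusted p = 0.00773). CD+DSS replicate 1 was the lowest DSS library for both.

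Lrg1, a secreted acute-phase glycoprotein, had FPKM 38.6, 26.7 and 38.1 in HFD+DSS and 9.34, 9.10 and 16.1 in CD+DSS, against 6.11, 1.21 and 1.48 in HFD and 1.49, 1.36 and 2.04 in CD (log2 2.79 ± 0.27; limma adjusted p = 0.00122). All 3 HFD+DSS libraries were above all 3 CD+DSS libraries, but the diet difference with DSS, 1.53 ± 0.38, did not pass (limma adjusted p = 0.700). The acute-phase gene Saa3 rose by 3.36 ± 0.43 (limma adjusted p = 0.00528). Lcn2, which sequesters iron-carrying siderophores, had FPKM 2.82 to 14.3 with DSS and 0.398 to 0.892 without, a log2 difference of 1.92 ± 0.28 given with no test. Cebpb and Cebpd, transcription factors of the acute phase, rose by 1.35 ± 0.23 (limma adjusted p = 0.0138) and 1.03 ± 0.19 (0.0205). Timp1, an inhibitor of matrix proteases, rose by 1.83 ± 0.32 (limma adjusted p = 0.0161), with its highest value, 19.4, in CD+DSS replicate 3. Bcl2l1, which encodes the survival protein Bcl-xL, rose by 0.43 ± 0.09 (limma adjusted p = 0.0378).

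Calls for Reg3b, Reg3g, Lrg1, Saa3 and Cebpb in the averaged comparison held in all 12 runs that left out a library and under the 6 other settings. This shows how the calls depend on single libraries and settings, and is not support for genes listed with DSS results known. Timp1 lost its call without HFD replicate 2 (adjusted p = 0.0551) and with no filter on low values (0.0503). Cebpd lost it without CD+DSS replicate 1, HFD replicate 2 or CD replicate 1 (up to 0.0663), with no filter (0.0553) and with equal summed FPKM (0.0710). Bcl2l1 kept its call only without HFD+DSS replicate 2 or without CD replicate 3 (up to 0.117 in the others), and lost it under 4 of the 6 other settings (up to 0.108). The remaining targets, among them the cell cycle gene Ccnd1, the kinase gene Pim1 and Myc, did not pass.

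Inhibitors and kinases of the pathway gave no call. Of 15 other inhibitors 0 passed, with a median of -0.13. Socs1, a relative of Socs3 induced by interferon, had FPKM 8.34, 1.92 and 5.46 in HFD+DSS, 6.46, 2.96 and 2.24 in CD+DSS, 2.42, 1.56 and 1.44 in HFD and 1.28, 0.963 and 2.37 in CD. Its log2 difference was 0.95 ± 0.29 (limma adjusted p = 0.0970), with overlap between libraries with and without DSS. Ptpn1, a phosphatase that acts on Janus kinases, was at 0.41 ± 0.11 (limma adjusted p = 0.0713), Socs2 at -0.35 ± 0.11 (0.106) and Socs7 at -0.28 ± 0.10 (0.123).

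Of 9 Janus kinases and other STATs tested, 0 passed. The nearest was Jak3, the kinase of the common gamma chain, at 0.72 ± 0.17 (limma adjusted p = 0.0504), followed by Stat6, the factor downstream of Il4ra, at 0.25 ± 0.10 (0.185). Tyk2 and Jak2 were at 0.25 ± 0.14 and -0.32 ± 0.20. Receptors gave no call either, with 0 of 3 for the IL-6 family (Il11ra1 at 0.15 ± 0.18, Il27ra at -0.23 ± 0.14 and Lifr at -0.28 ± 0.16) and 0 of 8 for other STAT3 ligands and receptors. In the second list Lepr, the leptin receptor, was at -0.79 ± 0.23 (limma adjusted p = 0.0866), Il22ra2, the soluble IL-22 inhibitor, at -0.96 ± 0.35 (0.141), Il10rb at 0.34 ± 0.14 (0.175) and Csf3r at 0.50 ± 0.22 (0.196).

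Of 10 NF-kappaB genes and relatives of Bcl3, all 10 had a positive log2 difference and 1 passed. Rela, the p65 subunit, had FPKM 18.8 to 21.4 in HFD+DSS and 20.8 to 23.7 in CD+DSS, against 15.3 to 15.7 in HFD and 16.0 to 16.6 in CD (log2 0.40 ± 0.08; limma adjusted p = 0.0312). It lost the call in 8 of the 12 runs that left out a library, keeping it without HFD+DSS replicate 1 or 3, CD+DSS replicate 2 or CD replicate 3 (up to 0.0933 in the others). With equal summed FPKM it missed the threshold (0.193). Nfkb2 and Nfkbib were at 0.42 ± 0.11 and 0.46 ± 0.12 (limma adjusted p = 0.0621 and 0.0660). Nfkbiz, a nuclear IkB protein like Bcl3, passed under HFD alone, by 1.12 ± 0.19 (limma adjusted p = 0.0391), and kept the call only without HFD+DSS replicate 2 (up to 0.166 in the other 11 runs). It lost the call under 5 of the 7 other settings, up to 0.236 with the posterior Hox covariate.

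In the IL-4 axis 1 of 6 tested genes passed, and it fell. Retnla, a secreted protein of alternatively activated macrophages, had FPKM 0, 3.20 and 1.31 in HFD+DSS and 3.04, 0.742 and 0.336 in CD+DSS, against 13.1, 8.71 and 10.5 in HFD and 4.20, 1.91 and 14.6 in CD. Its log2 difference was -2.00 ± 0.45 (limma adjusted p = 0.0427), and under each of the 6 other settings it missed the threshold (up to 0.106). It kept the call only without HFD+DSS replicate 2, CD+DSS replicate 1 or CD replicate 2 or 3. Il13ra1, Retnlb and Arg1 were at 0.29 ± 0.22, -0.44 ± 0.37 and 0.17 ± 0.30. Il4 had 53 fragments in HFD+DSS against 56 in HFD, and 48 in CD+DSS against 64 in CD.

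**Figure D4:**
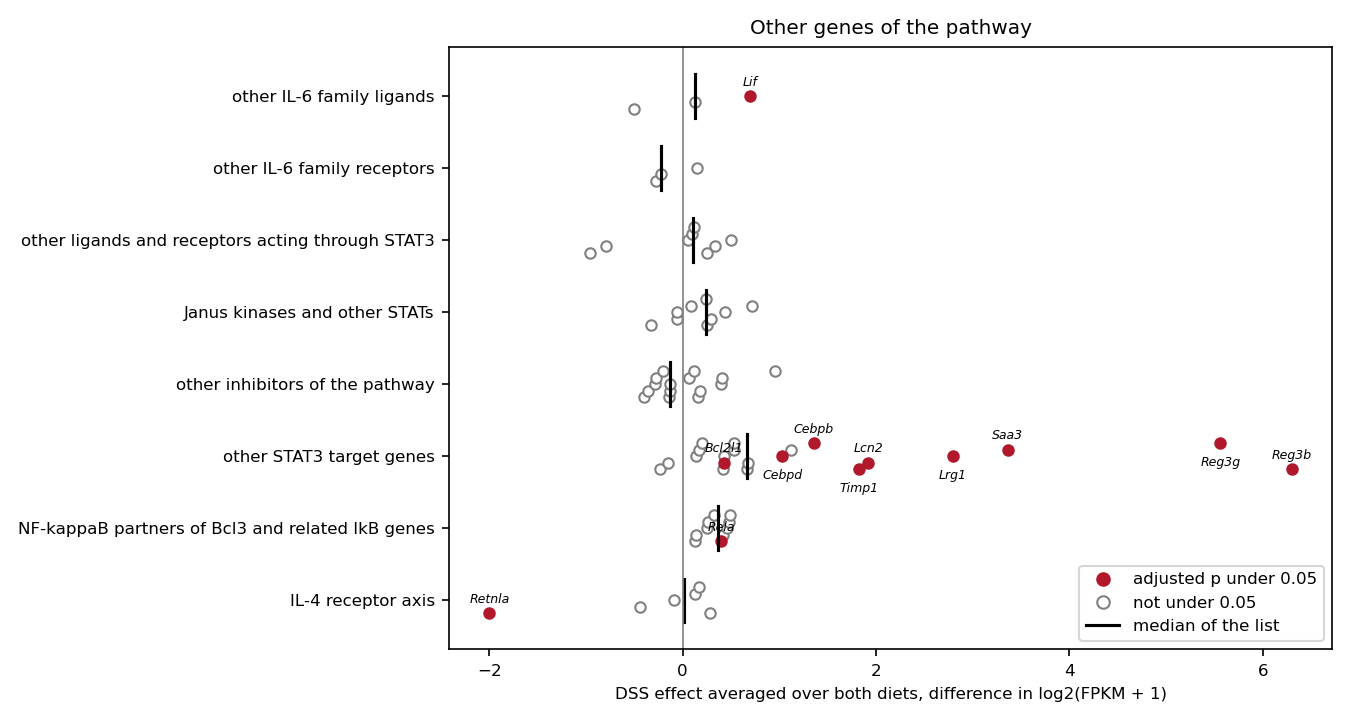
DSS effect averaged over both diets, in log2(FPKM + 1), for the 75 tested genes of 8 pathway lists, with filled points for limma adjusted p under 0.05 and a bar at each list's median. The STAT3 targets hold 9 of the 12 filled points, 1 of them Lcn2, and the lists of receptors, kinases and inhibitors hold 0.

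The genes whose profiles over the 12 libraries were most like that of Socs3 were found among 7807 genes with a mean FPKM of 5 or more. Likeness was the root mean square difference between z-scored log2(FPKM + 1) values, in units of 1 SD, and is given as a description. Sbno2 came first, at 0.164, Bcl3 was number 3, at 0.278, and Stat3 number 9, at 0.342, while Il4ra was number 53 and Il6st number 2569. Nos2, inducible nitric oxide synthase, was number 2, at 0.254, with FPKM 82.7, 19.9 and 16.0 in HFD+DSS, 17.8, 16.1 and 21.7 in CD+DSS, 1.47, 2.67 and 0.872 in HFD and 0.394, 2.03 and 1.73 in CD. Clca4b, Zfp710, the epithelial kinase gene Ptk6, the scaffold gene Ksr1 and the necroptosis kinase gene Ripk3 followed, at 0.286 to 0.331. Clca4b has close paralogues that may share its reads.

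**Figure D5:**
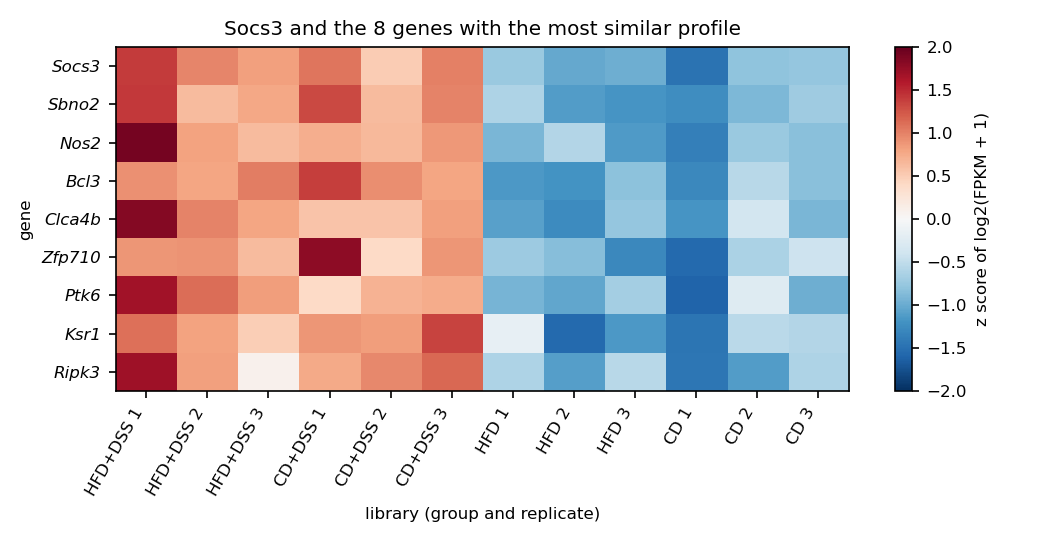
Z scores of log2(FPKM + 1) of Socs3 and the 8 genes of most similar profile, 1 row per gene and 1 column per library, from low (blue) to high (red). HFD+DSS replicate 1 is high for Nos2, at FPKM 82.7, and CD replicate 1 is among the bluest columns.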

How the data were processed

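The authors deposited 1 table of FPKM values with 54532 genes and 12 libraries, on mm10 per the submitters' processing notes. Per the labels' protocols, an RNeasy mini plus kit was used for RNA and a SMARTER mRNA-Seq kit for libraries. The aligner, counter, annotation and any use of strand were not given in the sources used here, so overlapping and antisense genes may share reads. Symbols and coordinates came from GENCODE M21 for 54495 identifiers.

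In each library, 97.8% to 98.1% of values gave whole fragments within 0.1 when multiplied by exon length and library size. Recovered fragments were used for low genes and for voom. Il11 needed a length factor of 1.03. The median ratio to the geometric mean over libraries was 1.01 in every library, so the deposited FPKM already carry a common scaling.

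The 14179 genes with FPKM of at least 1 in 3 or more libraries were fitted as log2(FPKM + 1) with limma 3.58.1 in R 4.3.3 (eBayes with trend), with 1 mean per group and no covariate. Benjamini-Hochberg adjustment ran over all genes tested, with a threshold of 0.05. The code was tested on simulated data with 200 changed genes. Replicate numbers were not treated as pairs in the main fit, and no 2 libraries of a group agreed within counting noise.

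Members and lists were chosen with earlier results of these data known. Named were all 10 members, each list gene that passed in any of 6 contrasts or had 1 of the 4 smallest p-values in the averaged DSS contrast, and the 8 genes most like Socs3. Ccnd1, Pim1, Myc, S100a8, S100a9, Ly6g, Cd177, Retnlg, Mmp9, Jchain, Cd14, Gfap, Osm, Il22, Csf3 and Il4 were named after their values were seen. Alternatives were a pseudocount of 0.1, no filter, the compared groups alone, the replicate block, equal summed FPKM, voom, posterior Hox level as a covariate, and each library left out.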

Additional observations from a re-analysis of the deposited data

Results flagged for a closer look

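Nfkbiz, an IkB gene related to Bcl3, differed in opposite directions between the diets without and with DSS. With DSS, FPKM was 28.2, 18.9 and 17.3 in HFD+DSS and 14.4, 16.2 and 16.9 in CD+DSS, so all HFD+DSS libraries were above all CD+DSS libraries. Without DSS, FPKM was 8.87, 10.7 and 7.86 in HFD and 18.7, 19.1 and 14.9 in CD, so all HFD libraries were below all CD libraries. The interaction, which subtracts the DSS effect in CD from that in HFD, was 1.262 on the log2(FPKM + 1) scale, with a limma adjusted p of 0.560, which did not pass. Without DSS, 9.63% of all genes tested had groups that did not overlap, and with DSS 9.46%. The posterior Hox sum crossed in the same way. It was 46.6 to 92.8 in HFD+DSS and 1.62 to 40.5 in CD+DSS, against 7.04 to 34.7 in HFD and 38.3 to 111 in CD. The part of tissue position in the Nfkbiz difference was not tested.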

How the results depend on the processing

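Counts below are genes past the limma threshold, for members, pathway genes and all genes. Under CD, where 4, 2 and 12 passed for DSS, these were 2, 0 and 5 with no filter on low values, 0 each in the fit of the compared groups alone and with the posterior Hox covariate, and 0, 1 and 2 with the replicate block. Equal summed FPKM gave 2 members and voom 1 pathway gene. Under HFD, where 4, 3 and 48 passed, no filter gave 2, 1 and 10, the replicate block 2, 1 and 12, the Hox covariate 0, 0 and 1, the compared groups alone 2 members and 12 of all genes, and equal summed FPKM 2 members. With both diets averaged, where 7, 12 and 389 passed (counts of members describe genes chosen on these results), pathway genes fell to 7 with no filter and with equal summed FPKM, and all genes to 173 with no filter, 162 with the replicate block and 219 with equal summed FPKM. With no filter, 2 genes passed for diet with DSS and 1 for the interaction, and 0 members did. The cause of these moves was not tested, beyond the 30860 genes tested when no filter was applied.

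Leaving out 1 library in turn gave 0 to 4 members, 0 to 3 pathway genes and 0 to 33 of all genes for DSS under CD. It gave 0 to 4, 0 to 4 and 1 to 78 under HFD, and 5 to 7, 6 to 16 and 114 to 479 with both diets averaged. For all genes it gave 0 to 2 for diet without DSS, 0 to 1 for diet with DSS and 0 to 3 for the interaction.

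Replicate numbers are shared between groups, but deviations of same-numbered samples correlated at -0.46 to 0.20 (median -0.11, 18 pairs), so the samples share only a number. With the block, Rela was at an adjusted p of 0.0739 (DSS averaged).

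No log2 difference that changed sign was past the threshold. With the Hox covariate they were -0.030 for Il11, -0.0838 for Il4ra, 0.025 for Sbno2 and 0.14 for Bcl3 (diet without DSS), -0.010 for Osmr (diet with DSS), 0.020 for Il6ra (DSS under CD), and -0.13 for Il6st, -0.12 for Stat3, -0.18 for Socs3 and -0.55 for Bcl3 (interaction). With equal summed FPKM they were -0.0098 for Il6st (DSS under CD) and 0.0032 for Sbno2 (diet without DSS). Arg1 (DSS averaged) was at -0.018 with pseudocount 0.1 and -0.34 with voom. With a library left out, Il6st ranged over -0.13 to 0.39 (DSS under CD), -0.0067 to 0.22 (diet without DSS), -0.13 to 0.39 (diet with DSS) and -0.23 to 0.29 (interaction). Il6ra ranged over -0.22 to 0.12 (DSS under CD), -0.041 to 0.26 (diet without DSS) and -0.28 to 0.063 (diet with DSS), and Osmr over -0.17 to 0.27 (diet with DSS) and -0.40 to 0.039 (interaction). Diet without DSS ranged over -0.00013 to 0.30 for Il4ra, -0.18 to 0.30 for Socs3, -0.11 to 0.061 for Sbno2 and -0.26 to 0.00040 for Bcl3. Diet with DSS ranged over -0.071 to 0.015 for Stat3, -0.16 to 0.081 for Sbno2 and -0.18 to 0.037 for Bcl3. The interaction ranged over -0.10 to 0.45 for Socs3, -0.15 to 0.094 for Sbno2 and -0.091 to 0.17 for Bcl3. DSS averaged ranged over -0.017 to 0.25 for Il11ra1 and -0.023 to 0.40 for Arg1.

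Depth limits low ligands such as Il6, Osm, Il22 and Csf3, whose libraries without DSS held few or 0 fragments.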
